A study of Mus musculus with 1152 samples.

Results

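Insulin-like growth factor binding proteins (IGFBPs) were examined in single lymphatic endothelial cells (LECs) of the nasopharyngeal lymphatic plexus of aged mice. The members were chosen by name, as Igfbp2, Igfbp3, Igfbp4, Igfbp5, Igfbp6 and Igfbp7. Of these 6 genes, 5 were measured among 23168 genes, and Igfbp2 was not analysed here. The cells were CD31+ PDPN+ sorted cells from pooled nasopharyngeal mucosa of aged C57BL/6 mice of both sexes, profiled by Smart-seq3, which reads whole transcripts of cells in plate wells. The labels gave a single group, aged nasopharyngeal LECs, of which 56.9% of cells were analysed here. Since cells could not be traced to animals, the pool was the only sample (n = 1) and no comparison was tested across animals. The labels named no transgene or treatment, and no other age group was analysed here.

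IGFBPs are secreted proteins that hold insulin-like growth factors in the extracellular space and so set how much ligand reaches its receptor. Proteases release the ligand by cutting the binding protein, and some members also bind matrix or cell surfaces independently of the ligand. In endothelium they are best known as secreted regulators of vessel growth and as genes that differ between vascular beds.

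Depth ran from 7046 to 10727631 reads per cell around a median of 148202.5. A gene counted as detected at 1 read or more, and each share of cells is given with its exact (Clopper-Pearson) 95% interval, which covers counting error only. Because depth varied, shares are also given for the 86.6% of cells that could be thinned to 20000 reads each, which left out 88 shallower cells. Levels are reads per 10000 reads of a cell, or natural logs of 1 plus that value where stated. The 8 lymphatic identity genes, Prox1 and Flt4 among them, were detected in 87.7% to 100% of cells, whereas Epcam and Krt18, which mark epithelium, were detected in none (0%, interval up to 0.561%). The highest share was 3.51% among mural markers and 9.60% among haematopoietic markers, whereas the fibroblast marker Dcn reached 30.03%. Shares of the 6 blood endothelial markers ran from 2.44% for Flt1 to 96.2% for Emcn.

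Igfbp4, Igfbp5 and Igfbp7 were widespread in these LECs, whereas Igfbp3 and Igfbp6 were each detected in a minority of cells. The median share over the 5 members was 77.7%. Only 2 cells had no read of any member, 56.2% of cells had reads of 3 members, and 14 cells (2.13%) had reads of all 5. After thinning, 43.1% of cells had reads of 2 members and 37.9% of 3.

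Igfbp4 encodes a soluble binding protein that is the classical substrate of the protease pappalysin (Pappa). It was detected in 95.3% of cells (interval 93.4% to 96.8%) and in 87.5% of thinned cells (84.5% to 90.1%). Its level per 10000 reads was 0 in the lowest cell, 5.98 in the median cell and 86.4 in the highest cell. The level was thus spread over most cells, and the tenth of cells with the most Igfbp4 (66 cells) held 36.4% of its summed level.

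Igfbp5 encodes a binding protein that also attaches to extracellular matrix. It was detected in 89.5% of cells (86.9% to 91.7%) and in 67.3% of thinned cells (63.2% to 71.1%). Its level per 10000 reads was 0 in the lowest cell, 2.31 in the median cell and 140.2 in the highest cell. Igfbp5 was the more uneven of these widespread members, and the top 66 cells held 52.5% of its summed level. By variance of natural log values beyond the trend on the mean, Igfbp5 ranked 11 of 9666 genes detected in at least 10% of cells, against rank 79 for Igfbp4, and Igfbp3 and Igfbp7 followed further down.

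Igfbp7 encodes a distant relative with low affinity for insulin-like growth factors that is deposited in vascular basement membranes. It was detected in 77.7% of cells (74.4% to 80.9%) and in 64.1% of thinned cells (59.99% to 68.04%). Its level per 10000 reads was 0 in the lowest cell, 1.29 in the median cell and 29.7 in the highest cell. Its gene overlaps Polr2b, an RNA polymerase subunit gene on the opposite strand, over 85 exonic bases, and whether the counting used strand is not given in the sources used here. The mean level of Polr2b was 0.471 per 10000 reads over all cells.

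Igfbp3 encodes the main carrier of insulin-like growth factors in blood. It was detected in 21.2% of cells (18.1% to 24.5%) and in 11.97% of thinned cells (9.42% to 14.9%). Its level per 10000 reads was 0 in the lowest and the median cell and 11.9 in the highest cell. The top 66 cells held 94.9% of its summed level.

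Igfbp6 encodes a binding protein that prefers insulin-like growth factor 2. It was detected in 47 cells (7.16%, interval 5.31% to 9.41%) and in 3.70% of thinned cells (2.30% to 5.60%). Its level per 10000 reads was 0 in the lowest and the median cell and 26.9 in the highest cell. With so few cells, Igfbp6 did not reach the 10% detection used below for comparing genes.

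In the genome (GENCODE, GRCm38), Igfbp3 and Igfbp4 lie on chromosome 11 at 7206086 to 7213923 and 99041244 to 99054392, Igfbp5 on chromosome 1 at 72857932 to 72874884, Igfbp6 on chromosome 15 at 102144362 to 102149511 and Igfbp7 on chromosome 5 at 77349240 to 77408041.

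The promoters of the 4 members detected in at least 10% of cells are shown because their mean levels did not all peak in the same cell cluster. The letters upstream of them can so be set side by side. Each run is the 120 bases before the RefSeq gene start, 5′ to 3′ on the gene's strand, in build GRCm38.p6. The windows are chr11:7213924-7214043 (minus strand) for Igfbp3, chr11:99041124-99041243 (plus strand) for Igfbp4, chr1:72874866-72874985 (minus strand) for Igfbp5 and chr5:77408046-77408165 (minus strand) for Igfbp7. Capitals mark a match to TATAAA or TATATA on the gene's strand.
Igfbp4: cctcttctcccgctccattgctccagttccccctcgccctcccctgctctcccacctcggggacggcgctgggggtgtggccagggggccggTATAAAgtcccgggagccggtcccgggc
Igfbp7: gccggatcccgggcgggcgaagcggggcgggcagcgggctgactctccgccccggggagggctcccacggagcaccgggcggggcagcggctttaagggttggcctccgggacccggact
Igfbp5: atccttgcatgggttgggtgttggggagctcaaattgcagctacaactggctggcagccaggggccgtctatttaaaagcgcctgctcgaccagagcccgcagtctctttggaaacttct
Igfbp3: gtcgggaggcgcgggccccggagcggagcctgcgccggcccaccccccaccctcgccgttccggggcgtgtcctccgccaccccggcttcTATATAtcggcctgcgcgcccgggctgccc

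TATAAA was found 28 bases before the Igfbp4 start and TATATA 30 bases before that of Igfbp3, and neither was found in the Igfbp5 or Igfbp7 window. Only exact matches were counted, so the similar run tatttaaa in the Igfbp5 window was not. The RefSeq start of Igfbp5 lies downstream of its GENCODE start, so the end of this window falls inside the gene as placed above. A TATA element of Igfbp5 was therefore not excluded. Of 32851 windows of the same length, 4.19% held TATAAA, 2.51% held TATATA and 6.07% held at least 1 of them. CACCC, the core of Krüppel-like factor motifs, was searched on both strands and found 3 times before Igfbp3, once each before Igfbp4 and Igfbp5 and not before Igfbp7, with 31.7% of windows holding it. TGANTCA, the AP-1 motif, was found on neither strand of these windows, with 3.41% of windows holding it. The GC content was 55% for Igfbp5 against 72.5% to 79.2% for the other 3. These matches describe letters in a short window and not factor binding.

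Levels were compared between members only per kilobase of exon, since long transcripts yield more reads in a full-length method. On the scale of reads per 10000 per kilobase, the mean level was 2.21 for Igfbp7, 2.04 for Igfbp4, 1.66 for Igfbp5, 0.118 for Igfbp6 and 0.117 for Igfbp3. Igfbp7, with only 1209 exonic bases, therefore stood level with Igfbp4 and Igfbp5, although it had fewer reads. The neighbours Igfbp7 and Igfbp4, and likewise Igfbp6 and Igfbp3, were close in this order. Each gene's own mean of natural log values, which is not divided by length and is not an order of the genes, was 1.83 for Igfbp4, 1.47 for Igfbp5, 0.91 for Igfbp7, 0.15 for Igfbp3 and 0.04 for Igfbp6.

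The labels numbered the cells without naming plates, so the spread within the pool was described over 12 blocks of 96 consecutive cell numbers with 18 to 83 analysed cells each. The thinned share of Igfbp4 was 60% in the lowest block, 86.7% in the median block and 95.7% in the highest. That of Igfbp5 was 40%, 66.7% and 85.1% in the same order, and that of Igfbp7 was 43.8%, 62.5% and 75.5%. The ninth block was lowest for both Igfbp4 and Igfbp5 and held 20 cells with a median of 2042800 reads. Igfbp3 ran from 2.44% to 22.9% and Igfbp6 from 0% to 8.51%, so that neither became widespread in any block.

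**Figure D1:**
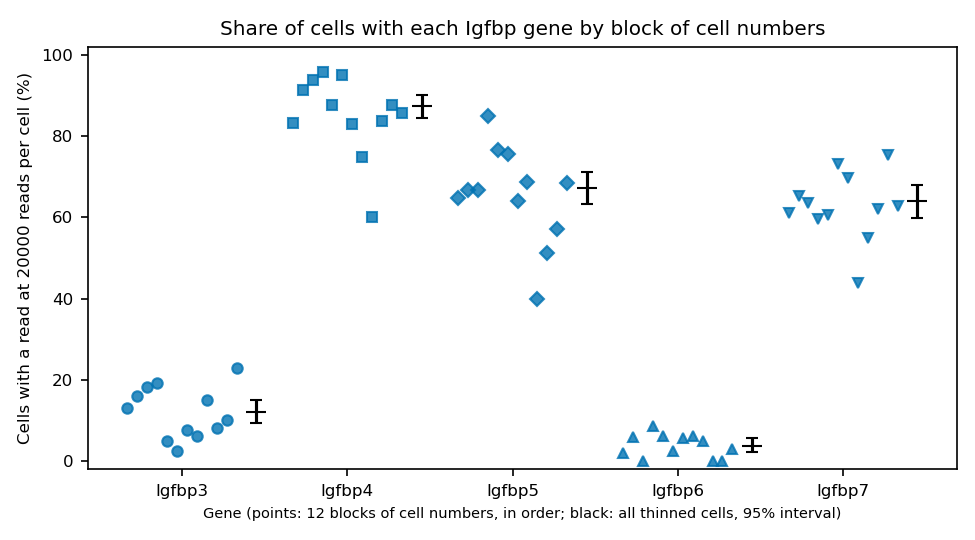
Share of thinned cells with at least 1 read of each member (y axis, percent of cells at 20000 reads per cell), with 1 blue point for each of 12 blocks of cell numbers and, in black, the share over all thinned cells with its exact 95% interval. Igfbp4 was at 60% or more in all blocks, and Igfbp6 was at 8.51% or less.

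To ask how the members were distributed among kinds of LEC, cells were clustered as in the study, with the members and the insulin-like growth factor genes left out of the genes that made the clusters. This gave 6 clusters, each with cells in all 12 blocks. A Ptx3+ capillary-like cluster of 170 cells (25.9%) had 5 of 5 markers of its class raised (at least 1.5-fold over the other cells and detected in at least 10% of the cluster), and a precollecting-like cluster with 23.8% of cells had 3 of 4, namely Foxp2, Apoe and Bmp4. The fourth, Lyve1, by which with Foxp2 the paper annotated precollecting LECs, was lower there, at 0.377 times the other cells. This cluster also had 2 of 4 downstream valve markers raised, Clu (3.62-fold) and Gja4 (2.17-fold), so its name is provisional. The other 4 clusters are called by a leading gene: Ptn (18.6% of cells), Fndc1 (100 cells, 15.2%), Fxyd2 (72 cells, 10.98%) and Rsad2 (36 cells, 5.49%). Ptn and Fndc1 are both markers of the Ptx3- capillary class. The Ptn cluster had 3 of the 4 markers of that class raised (Ptn, Anxa3 and Stc1), but the fourth, Fndc1, was raised in another cluster, so neither was given the name of the class. The Fxyd2 cluster had 2 of 4 upstream valve markers raised (Cldn11 and Gata2), 1 of 4 downstream valve markers (Cldn11) and 1 of 4 Ptx3- capillary markers (Stc1), too few for a class name. Rsad2 led a set of interferon-induced genes. The Ptn cluster was the shallowest, with a median of 77582 reads per cell against 199540 in the precollecting-like cluster.

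The members whose promoters are printed above did not all have their highest mean level in the same cluster, although Igfbp4 and Igfbp7 shared 1 cluster of high levels. Igfbp4 was highest in the Ptx3+ capillary-like cluster, Igfbp5 in the Ptn cluster, Igfbp3 in the Fndc1 cluster and Igfbp7 in the Rsad2 and Ptx3+ capillary-like clusters. With 0.1 per 10000 added to both means, the highest cluster mean was at least 2-fold the lowest for all 4 members detected in at least 10% of cells, against 35.5% of the 9666 genes detected as widely. The ratio was 13.9 for Igfbp5, 13.2 for Igfbp3, 9.85 for Igfbp7 and 6.12 for Igfbp4, with a median of 11.5 against 1.78 over those genes. These are descriptions of 1 pool, in which a gene that passes the detection minimum through 1 cluster has to differ. The added 0.1 also pulls the ratios of genes with low levels towards 1, and the 9666 genes were not matched to the members on level.

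**Figure D2:**
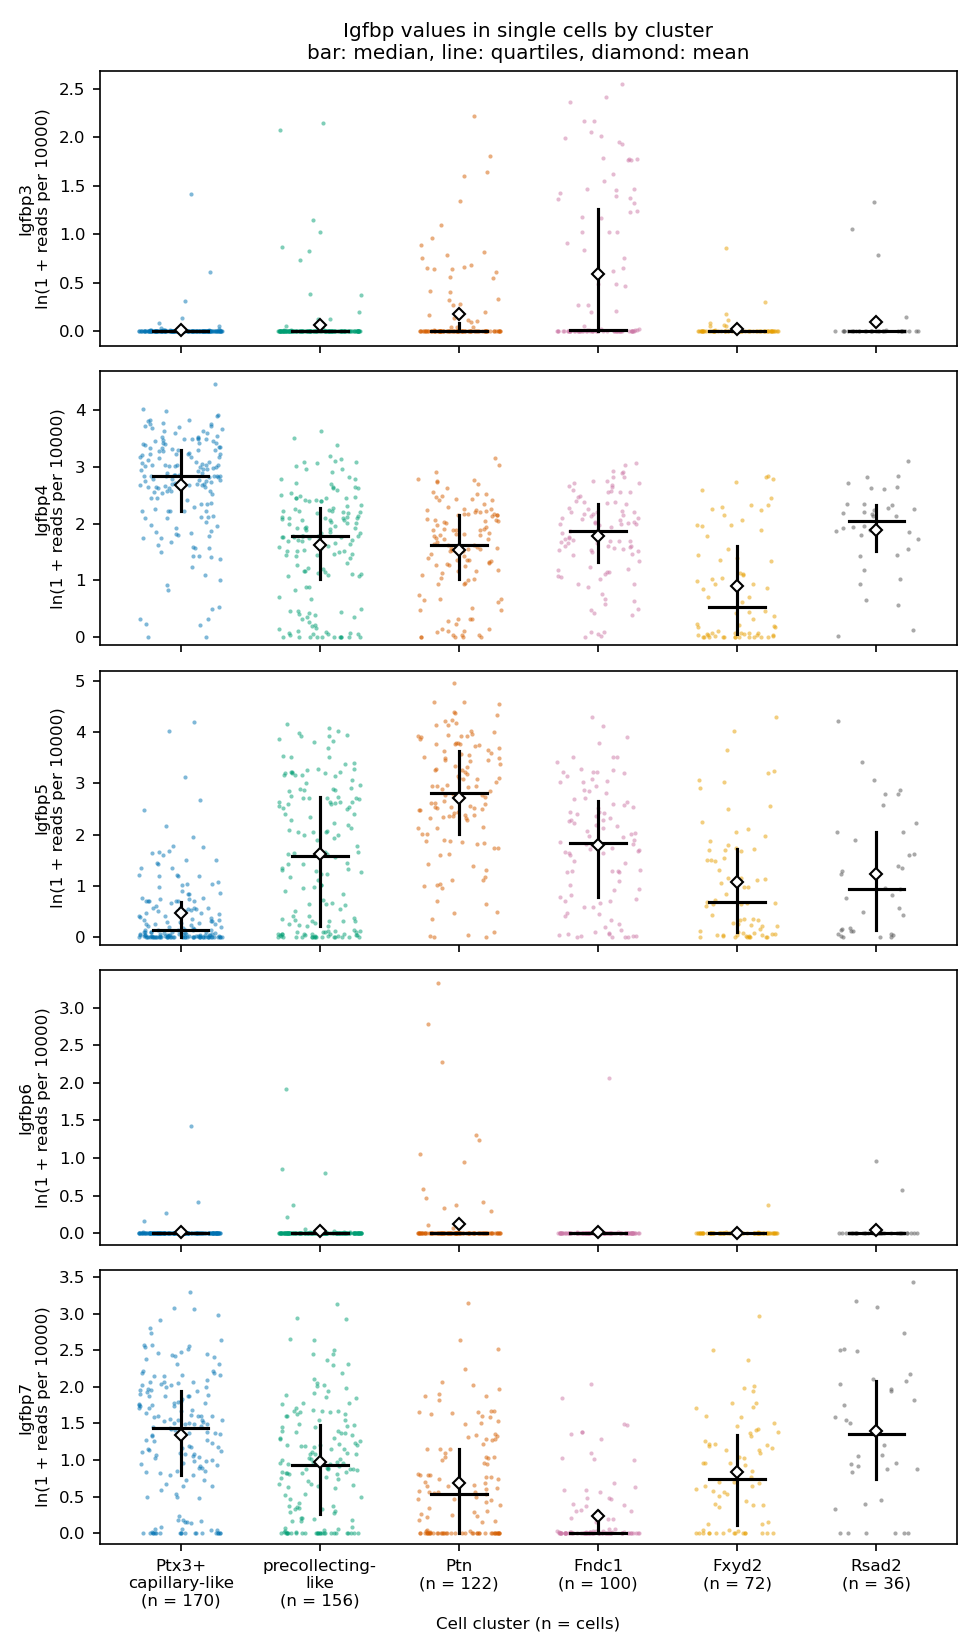
Value of each measured member in every cell (y axis, natural log of 1 plus reads per 10000) by cluster (x axis), with the median as a bar, the quartiles as a line and the mean as a diamond. Mean natural log values of Igfbp4 peaked at 2.68 in Ptx3+ capillary-like cells, those of Igfbp5 at 2.71 in the Ptn cluster and those of Igfbp3 at 0.59 in the Fndc1 cluster.

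Igfbp4 had a mean level of 18.6 per 10000 reads in the Ptx3+ capillary-like cluster and 5.69 in all other cells, a ratio of 3.22. Of the 9666 genes detected in at least 10% of cells, to which all such percentages refer, 1.34% were at least 2-fold higher in that cluster, and Igfbp4 was the 1 member among them. The 170 cells had a lowest level of 0, a median of 16.2 and a highest level of 86.4. The median cell of every other cluster lay below the lower quartile of 8.24 of these cells, although the ranges overlapped. Igfbp4 was higher in this cluster in 12 of 12 blocks, with ratios from 2.15 to 5.01.

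At the other end, Igfbp4 had a mean of 2.95 in the Fxyd2 cluster, 0.309 times that of all other cells, and its thinned share there was 57.6% (44.8% to 69.7%) against 88.7% to 96.6% in the other 5 clusters. The Fxyd2 cluster also held little Igfbp3, at 0.261 times the other cells, so that 2 of the 4 members were at least 2-fold lower in it, against 2.63% of genes. In this cluster 5 of 25 dissociation-response genes were raised, and their summed level of 311.5 per 10000 reads lay within the range of 279.8 to 346.6 of all clusters. The part of dissociation in the result was not tested.

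Cells of the Ptx3+ capillary-like cluster also carried more Aqp1 and Plvap, 2 of the 6 blood endothelial markers, and the summed level of the 6 was 78.9 per 10000 reads against 13.6 to 40.1 in the other clusters. Aqp1 alone made up 71.4 of that sum, while Flt1 was detected in 2.44% of all cells. Of the 6 fibroblast markers, Dcn and Col3a1 were raised there too, and Col1a1 and Col1a2 were 2.71-fold and 1.75-fold higher but detected in under 10% of the cluster. The summed fibroblast level was 1.96 against 0.174 to 1.65. Fcer1g, 1 of 5 haematopoietic markers, was raised 2.17-fold, and the summed level of the 5 was 0.432 against 0.105 to 0.385, with Tyrobp at 0. The summed level of the 6 mural markers was 0.819 against 0.0388 to 0.156, nearly all of it Acta2, which was 6.12-fold higher in the cluster through 5 cells with a read, while Notch3 was at 0. The part of such cells in the result was not tested. In the 64.8% of cells with no read of any fibroblast marker, reclustered alone, Igfbp4 was 2.90-fold higher in the cluster with the most Stab2, a marker of Ptx3+ capillary LECs. Without regression of depth, mitochondrial share, dissociation and ribosomal scores before clustering, the cluster with the most Stab2 had an Igfbp4 ratio of 1.41 and was not its highest cluster.

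Igfbp5 had a mean level of 24.6 per 10000 reads in the Ptn cluster and 6.62 in all other cells, a ratio of 3.68. Of those genes, 0.486% were at least 2-fold higher in that cluster, and Igfbp5 was the 1 member among them. The cells of this cluster had a lowest level of 0, a median of 15.8 and a highest level of 140.2, and the thinned share was 96.97% (91.4% to 99.4%). Igfbp5 was higher in the Ptn cluster in 12 of 12 blocks, with ratios from 1.43 to 11.6. The ratio was 1.98 without regression before clustering. Reads were fewest in this cluster, so its high share was not accompanied by greater depth. Among markers of other cell types, Cd34, 1 of 6 blood endothelial markers, was raised 2.87-fold in it, with a summed level of the 6 of 27.1 against 13.6 to 78.9 in the other clusters. Dcn, 1 of 6 fibroblast markers, was raised 2.10-fold, with a summed level of the 6 of 1.65 against 0.174 to 1.96 and with Pdgfra and Lum at 0. The part of such cells in the result was not tested, and without cells with a fibroblast read the Igfbp5 ratio was 3.51.

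Igfbp5 was lowest where Igfbp4 was highest. In the Ptx3+ capillary-like cluster its mean was 1.68 per 10000 reads, 0.137 times that of all other cells, with a median of 0.151 and a thinned share of 37.2% (29.4% to 45.5%). Igfbp3, at 0.220 times the other cells, was the other member at least 2-fold lower there, against 1.87% of genes. In precollecting-like cells Igfbp5 varied widely, with quartiles of 0.249 and 14.5 per 10000 reads around a median of 3.90. That cluster therefore held cells with hardly any Igfbp5 beside cells near the median of the Ptn cluster.

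Igfbp3 had a mean level of 1.59 per 10000 reads in the Fndc1 cluster and 0.144 in all other cells, a ratio of 6.93. Igfbp3 was the 1 member at least 2-fold higher there, against 1.06% of genes. The 100 cells had a lowest level of 0, a median of 0.00897 and a highest level of 11.9, so that even here about as many cells lacked the transcript as held it. The thinned share was 41.9% (31.3% to 52.99%), against 18.2% (11.1% to 27.2%) in the Ptn cluster and 1.35% (0.164% to 4.80%) in the Ptx3+ capillary-like cluster. These 3 intervals did not overlap. In the precollecting-like cluster Igfbp3 was 0.474 times the other cells and was the 1 member at least 2-fold lower, against 1.2% of genes. Igfbp3 was higher in the Fndc1 cluster in 10 of the 10 blocks with at least 3 cells on each side, with ratios from 3.59 to 20.5.

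Igfbp7 had its highest mean level, 5.56 per 10000 reads, in the Rsad2 cluster, 2.17-fold that of all other cells. It was the 1 member at least 2-fold higher there, against 3.0% of genes. The 36 cells had a lowest level of 0, a median of 2.94 and a highest level of 29.7. Plvap, 1 of 6 blood endothelial markers, was raised 1.77-fold in this cluster, and Vwf had its highest mean there, 0.759 per 10000 reads, with reads in 3 cells. The summed level of the 6 was 40.1 against 13.6 to 78.9 in the other clusters, and its part in the result was not tested. In the Ptx3+ capillary-like cluster the mean was 4.30, with a median of 3.23, a ratio of 1.99 to all other cells. The thinned shares of 85.2% (66.3% to 95.8%) and 79.7% (72.3% to 85.9%) overlapped, so the order of these clusters was not separable.

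The lowest Igfbp7 was found in the Fndc1 cluster, with a mean of 0.474 per 10000 reads, a median of 0 and a thinned share of 27.9% (18.8% to 38.6%). At 0.181 times the other cells it was the 1 member at least 2-fold lower, against 2.27% of genes. Igfbp7 was thus lowest in the cluster where Igfbp3 was highest. The opposition did not hold in all clusters: in the Fxyd2 cluster both were below the other cells, Igfbp7 at 0.775 and Igfbp3 at 0.261 times. Igfbp7 was higher in the Ptx3+ capillary-like cluster than in all other cells in 10 of 12 blocks, with ratios from 0.559 to 3.39. In the cluster with the most Stab2 the ratio was 3.01 without cells with a fibroblast read and turned to 0.982 without regression before clustering. Polr2b, which overlaps Igfbp7, was lowest in the Rsad2 cluster, at 0.246 per 10000 reads, and highest in the Ptx3+ capillary-like cluster, at 0.628.

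Igfbp6 had its highest mean level in the Ptn cluster, 0.515 per 10000 reads against 0.0434 in all other cells. The 3 cells with the most Igfbp6, at 26.9, 15.2 and 8.80 per 10000 reads, all belonged to that cluster, and without them its ratio to other cells fell from 4.29 to 1.40. The thinned share there was 12.1% (6.42% to 20.2%), against 1.35% (0.164% to 4.80%) in the Ptx3+ capillary-like cluster. Igfbp6 is a familiar fibroblast transcript, and 25 of the 47 cells with an Igfbp6 read (53.2%, 38.1% to 67.9%) had a read of at least 1 of 6 fibroblast markers, against 33.8% of other cells (30.1% to 37.7%). The cells with an Igfbp6 read were also deeper, with a median of 700880 reads against 134550. Of the 3 cells with the most Igfbp6, 2 had no read of any of the 6 markers and the third had a read of 1, with Dcn at 0.00258 per 10000 reads. Prox1 was at 1.83, 4.22 and 0.569 per 10000 reads in these cells. The part of fibroblast RNA in these counts was not tested.

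The split by fibroblast reads used throughout rested mostly on Dcn, which was detected in 30.03% of all cells. In the 35.2% of cells with a fibroblast read and the 64.8% without, thinned shares were 88.3% and 87.02% for Igfbp4, and 69.4% and 66.02% for Igfbp5. They were 10.2% and 12.98% for Igfbp3, 69.4% and 61.05% for Igfbp7, and 5.34% and 2.76% for Igfbp6. Each pair of intervals overlapped. Mean levels per 10000 reads were 9.83 and 8.59 for Igfbp4, 10.2 and 9.83 for Igfbp5, 3.34 and 2.31 for Igfbp7, and 0.287 and 0.407 for Igfbp3. For Igfbp6 they were 0.124 and 0.135.

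Igfbp4 and Igfbp5 together accounted for most IGFBP reads, and their balance in a cell depended on its cluster. Per kilobase of exon, Igfbp4 exceeded Igfbp5 in 62.2% of the cells with either gene (58.4% to 65.96%). The share was 96.4% (92.4% to 98.7%) in Ptx3+ capillary-like cells, 80.6% (63.97% to 91.8%) in the Rsad2 cluster and 30.3% (22.3% to 39.3%) in the Ptn cluster. It was 56.4% in precollecting-like cells, 55% in the Fndc1 cluster and 49.3% in the Fxyd2 cluster, with overlapping intervals. Many cells were close to 1 extreme: Igfbp4 made up over 90% of the pair in 36.5% of cells and under 10% in 16.1%. The summed reads of the 5 members ranged from 10.6 per 10000 reads in the Fxyd2 cluster to 32.4 in the Ptn cluster. This sum is not divided by exon length and so gives most weight to Igfbp5, with 6006 exonic bases. It is not an order of the clusters by IGFBP transcripts.

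**Figure D3:**
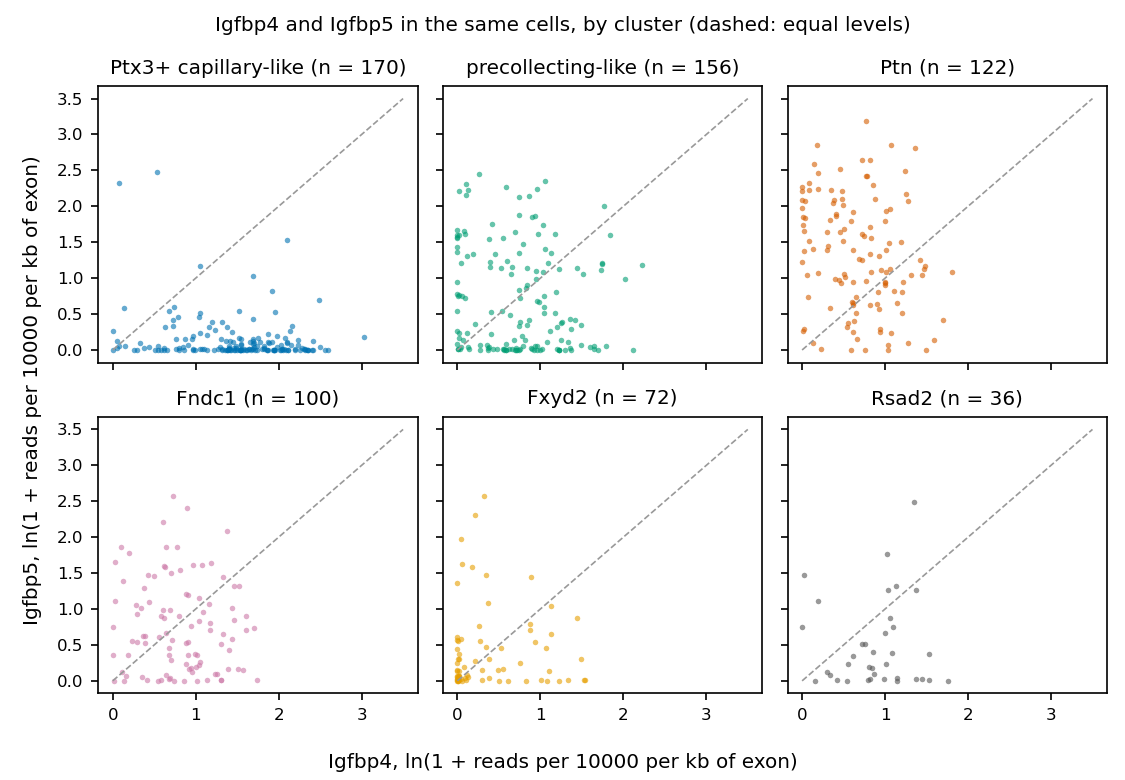
Igfbp4 (x axis) against Igfbp5 (y axis) in the same cells, both as the natural log of 1 plus reads per 10000 per kilobase of exon, in 1 panel per cluster with a dashed line of equal levels. Ptx3+ capillary-like cells lay below the line (Igfbp4 higher in 96.4%), and most cells of the Ptn cluster lay above it (Igfbp4 higher in 30.3%).

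Across all cells analysed, which share 1 pool and differ in depth, Spearman correlations were computed with the number of detected genes regressed out, as a description. Among the 10 pairs of members the median rho was -0.018. Igfbp4 and Igfbp7 had a rho of 0.26, and Igfbp3 and Igfbp5 one of 0.22. Igfbp5 and Igfbp7 had a rho of -0.32, Igfbp4 and Igfbp5 one of -0.30, and Igfbp3 and Igfbp7 one of -0.24. With cluster means removed these became 0.17, 0.12, -0.18, -0.13 and -0.10, each smaller and of the same sign. Within single clusters the values varied: for Igfbp3 and Igfbp7 rho ran from -0.39 in the Fndc1 cluster to 0.09 in the Fxyd2 cluster, for Igfbp5 and Igfbp7 from -0.42 in the Rsad2 cluster to 0.03 in the Ptx3+ capillary-like cluster, and for Igfbp4 and Igfbp5 from -0.23 in the Ptn cluster to 0.08 in the Fxyd2 cluster. Pairs with Igfbp6 ranged from -0.05 to 0.08.

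The genes whose levels were most like each member were ranked by the same rho over all cells analysed among 9665 other genes. For Igfbp4 they were the water channel gene Aqp1 (0.48), the selenium carrier gene Selenop (0.47), the scavenger receptor gene Stab1 (0.45), Gm525 (0.45) and the lysosomal protease gene Ctsd (0.41). For Igfbp7 they were Cd81 (0.37), the adhesion receptor gene Adgrf5 (0.37), Gm525 (0.35), Ctsd (0.34) and Stab2 (0.31), so Gm525 and Ctsd appeared for both. For Igfbp5 they were the scavenging chemokine receptor gene Ackr3 (0.47), Podxl (0.46), Ptn (0.46), Crip1 (0.44) and Tagln2 (0.43). For Igfbp3 they were Tppp3 (0.38), Fndc1 (0.36), Ucp2 (0.34), Ackr3 (0.32) and Cd2 (0.29), which share Ackr3 with Igfbp5.

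The members were set beside other genes of the insulin-like growth factor system, from a list of 27 genes. Of these, 22 were measured, 11 were detected in at least 10% of cells and 8 of these 11 had a highest cluster mean at least 2-fold the lowest, against the 35.5% of all genes given above.

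Ligand transcripts were sparse. Igf1 was detected in 12.7% of cells (10.2% to 15.4%) and Igf2 in 8.23% (6.24% to 10.6%), and the insulin genes were not analysed here. The thinned share of Igf1 was 24.2% (16.2% to 33.9%) in the Ptn cluster and 17.6% (11.7% to 24.9%) in precollecting-like cells, against 2.703% (0.741% to 6.78%) in Ptx3+ capillary-like cells. Igf1 reads were thus few in the cluster with the most Igfbp4, but this was not particular to it. The mean level of Igf1 was 0.0428 per 10000 reads there and lowest in the Fndc1 cluster, at 0.0203.

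Receptor transcripts were more common. Igf1r, the signalling receptor for both ligands, was detected in 69.4% of cells (65.7% to 72.9%), Insr, the insulin receptor gene, in 38.3% and Igf2r, which clears insulin-like growth factor 2, in 29.4%. The mean level of Igf1r was 2.32 per 10000 reads in the Ptx3+ capillary-like cluster, 2.12-fold that of all other cells, and 0.777 in the Fndc1 cluster. Insr was highest in the Ptn cluster, at 0.560. Transcripts of the receptor substrates Irs1, Irs2 and Irs4 were each detected in at most 6.71% of cells.

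Among the proteases, Pappa, which cuts IGFBP4, was detected in 20.1% of cells (17.1% to 23.4%). Its thinned share was 26.4% (19.5% to 34.2%) in the Ptx3+ capillary-like cluster, where Igfbp4 was highest, and 6.34% (2.94% to 11.7%) in precollecting-like cells. Its inhibitors Stc1 and Stc2 were detected in 32.6% and 18.1% of cells, and Stc1, one of the markers that characterise the Ptn cluster, was lowest in the Ptx3+ capillary-like cluster. Adamts1, a metalloproteinase gene, was the most widespread of the list at 81.4% and ranged from 1.86 per 10000 reads in the Fndc1 cluster to 7.95 in precollecting-like cells. Htra1, Htra3 and Pappa2 were each detected in at most 3.20% of cells.

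Of the remaining list genes, Kazald1, an IGFBP-related gene, was detected in 19.97% of cells and was highest in precollecting-like cells at 0.478 per 10000 reads. Vtn, which encodes the matrix protein vitronectin, was detected in 9.76% of cells, with a mean of 1.43 in the Fndc1 cluster against 0.0902 to 0.323 in the others. Tmem219, a receptor gene for IGFBP3, was detected in 30.9% of cells and Lrp6 in 36.9%, and neither had a 2-fold range over clusters.

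**Figure D4:**
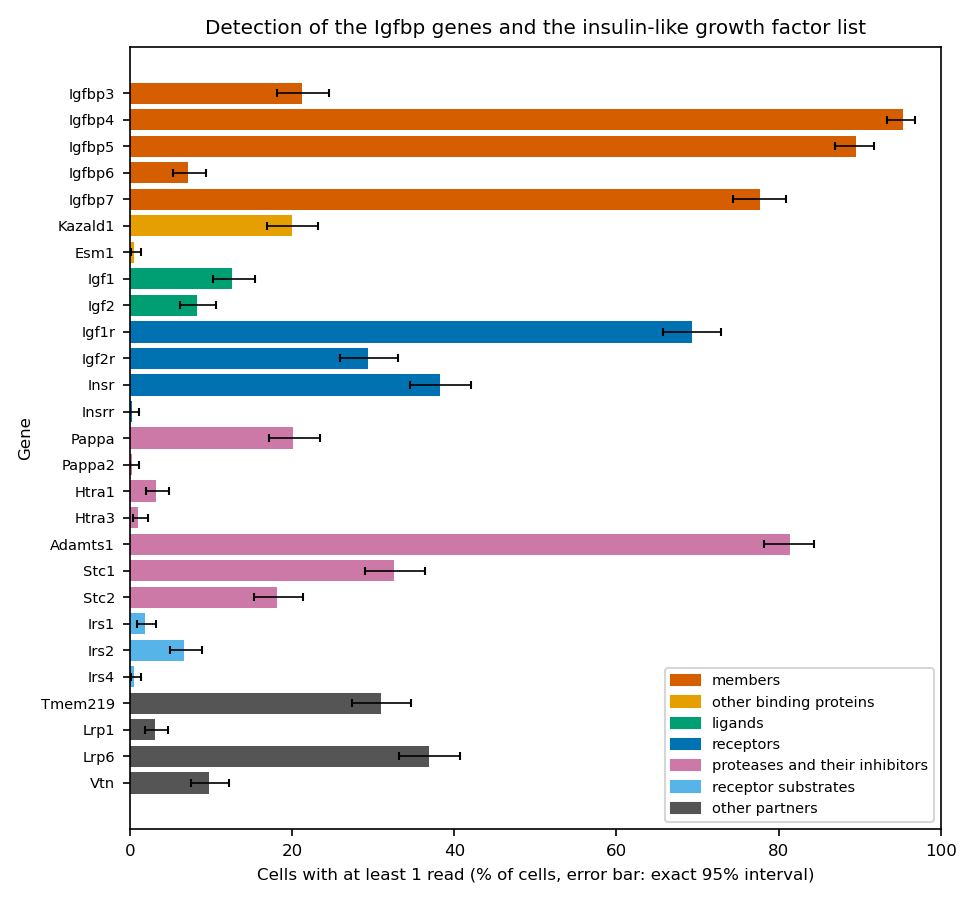
Share of all cells analysed with at least 1 read (x axis, percent, not thinned) for the 5 measured members and the 22 measured genes of the insulin-like growth factor list (y axis), coloured by role, with exact 95% intervals as error bars. Igfbp4, Igfbp5, Adamts1, Igfbp7 and Igf1r exceeded 69%, and the ligands Igf1 and Igf2 were at 12.7% and 8.23%.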

How the data were processed

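Sorted cells of 1 pool were sequenced by Smart-seq3. Per the methods, the authors aligned reads to mm10 with STAR, counted them with featureCounts and normalised them in Seurat 4.1.0. The deposited values were natural logs of 1 plus reads per 10000: their exponentials minus 1 summed to 10000 in all cells analysed, although the methods state log2. Taking the smallest value above 0 in a cell as 1 read, 100% of values above 0 were whole reads within 0.01 reads. PCR copies were not collapsed, so intervals cover counting error only.

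Cells were clustered in Seurat 5.3.0 (R 4.3.3) with 2000 variable genes less the members and the insulin-like growth factor list, regression of total reads, mitochondrial share, dissociation and ribosomal scores, 15 principal components and resolution 0.8, which gave 6 clusters. A marker was raised at 1.5-fold over the other cells if at least 10% of cluster cells had a read. Naming took at least 3 raised markers, except that the Ptx3- capillary name was not used where its markers split between clusters, a choice made after values were seen. No doublet caller was run, as wells had received single cells. Folds had 0.1 per 10000 added to both means. Intervals used scipy 1.17.1. With 1 sample, no p-value was computed.

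The named genes were the members, the insulin-like growth factor list, class and cell type markers, the 5 genes most like each member and leading genes of clusters. Polr2b and the 3 cells with the most Igfbp6 were added after values were seen, as was TATATA. The members and lists were chosen with earlier results of these data known. Igfbp2, Igfbp1, Igfbpl1, Igfals, Ins1, Ins2 and some marker genes were not analysed here. Positions and exon lengths came from GENCODE M21, and promoters from RefSeq (GRCm38.p6). Read recovery, thinned cluster folds, correlation ranks and clustering were tested on simulated data.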

Additional observations from a re-analysis of the deposited data

How the results depend on the processing

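No paired analysis was possible because there was 1 group and the replicate numbers were cell numbers. The median share of cells over the members, 77.7%, became 43.8% with detection set at a value above 1 on the natural log scale, 64.1% with thinned cells and 81.1% once the 25% of cells poorest in detected genes were dropped. Without regression before clustering, the ratios in the cluster with the most of a marker became 1.41 for Igfbp4 (Stab2, from 3.22), 0.982 for Igfbp7 (Stab2, from 1.99) and 1.98 for Igfbp5 (Ptn, from 3.68). Without cells with a fibroblast read the Igfbp7 ratio became 3.01. The cause was not tested. Over 12 settings, including 1 without clustering that was chosen after seeing the data, the ratio ran from 6.19 to 8.01 for Igfbp3 (cluster with the most Fndc1) and from 1.98 to 4.47 for Igfbp5. The Ptn cluster was the highest for Igfbp5 in 10 of 10 clusterings, the Fndc1 cluster for Igfbp3 in 10 of 10, and the Stab2 cluster for Igfbp4 in 9 of 10 and for Igfbp7 in 5 of 10. Of these clusterings, 1 kept Igfbp3, Igfbp4 and Igfbp5 among the genes that made the clusters, so its result was partly built in. Ptn and Fndc1 were themselves among the 5 genes most like Igfbp5 and Igfbp3, so these counts are only a description. Depth limits the shares: thinning took that of Igfbp5 from 89.5% to 67.3%, that of Igfbp3 from 21.2% to 11.97% and that of Igfbp6 from 7.16% to 3.70%.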
